A study of Mus musculus with 12 samples.

Results

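The comparison described here set the corneal endothelium of young mice that carry the Q455K allele of Col8a2 on both chromosomes against that of young wild-type mice. Its members are the 6 early libraries of the 12 in the series, 3 mutant and 3 wild type, all from mice of at most 2 months and all in batch 1 per the labels. The other 6 libraries, from mice of at least 8 months in batch 2, were used only for values set beside the early ones. A header of the authors' own table names the controls after the C57 strain, and the labels give no littermate status, sex or number of animals in a library. The labels call the libraries biological replicates, with nothing on separate preparation, so p-values measure the spread between these libraries, which may in part be technical.

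The corneal endothelium is a single layer of cells on the inner face of the cornea, which keeps the cornea clear by moving ions and water out of the stroma. It secretes Descemet membrane, a basement membrane with a lattice of collagen VIII built from the chains of Col8a1 and Col8a2. In people, changes in COL8A2, the same substitution among them, cause an early-onset form of Fuchs endothelial corneal dystrophy, in which this layer loses cells and deposits excess matrix. A misfolded secreted protein can load the endoplasmic reticulum, where the unfolded protein response induces chaperones such as Hspa5 and the ATF4 branch induces genes such as Chac1 and Fgf21. The early stage asks what already differs between the genotypes in young animals.

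Libraries held from 19722598 counts (wild-type replicate 2) to 39431676 counts (mutant replicate 1), at which 3 counts equal 0.152 to 0.0761 CPM, counts scaled to the size of the library. Wild-type replicate 2 stood apart before any comparison of genotypes. It was the shallowest library, yet it had at least 1 count in 31527 of the 32761 genes of the table (96.2%), against 19675 to 23208 genes (60.1% to 70.8%) in the other 5. In 4480 genes it held the only counts among the 6 early libraries, with a median of 4 counts per gene and 0.161% of its reads in all, against 59 to 131 such genes in each other library. Mitochondrial messenger RNA took 2.05% to 2.78% of reads in the 6 libraries. Results are therefore given with and without wild-type replicate 2.

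**Figure D1:**
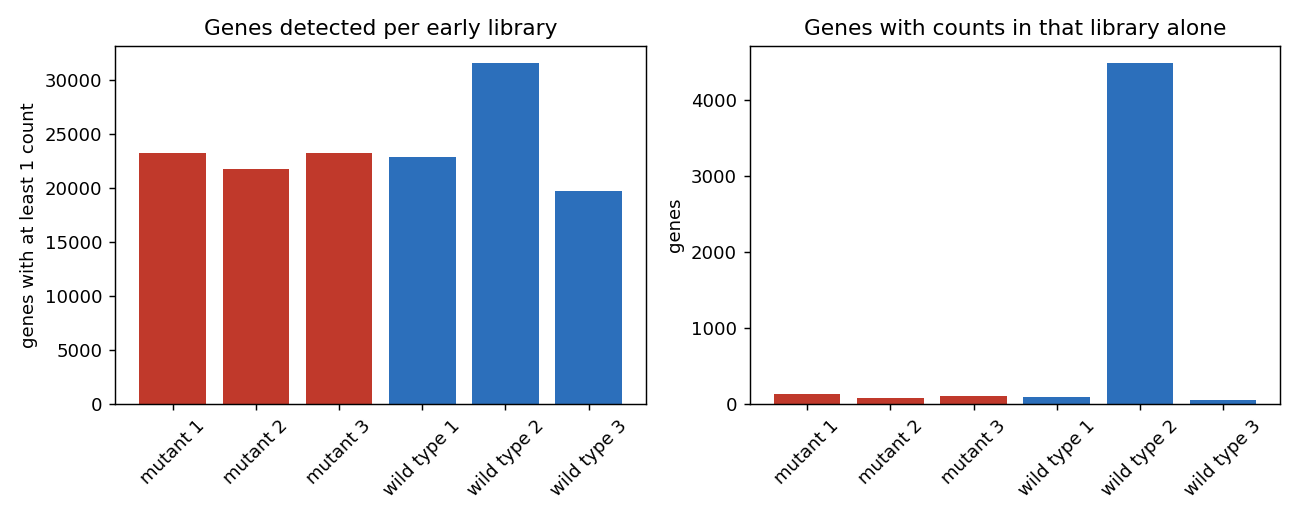
Genes with at least 1 count in each early library (left) and genes with counts in that library alone among the 6 (right), as bars for 3 mutant (red) and 3 wild-type (blue) libraries. Wild type 2 reaches 31527 genes and holds 4480 genes alone, against at most 23208 and 131 in any other library.

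The tissue label was checked against marker genes on the authors' FPKM scale, which is per transcript length. Slc4a11, a membrane transporter of this layer, ran from 774 to 1685 FPKM, Aqp1, its water channel, from 754 to 1354 FPKM, and Atp1b1, a sodium pump subunit, from 275 to 480 FPKM. The collagen VIII chains lay at 156 to 395 FPKM for Col8a1 and 156 to 325 FPKM for Col8a2. Cdh2, a cadherin of this layer, was low, at 5.08 to 8.24 FPKM. Transcripts of neighbouring tissues were present in every library, some at levels that overlapped those of the collagen VIII chains. Angptl7 of the trabecular meshwork and stroma ran from 26.6 to 438 FPKM, the lens crystallin Cryaa from 29.8 to 199 FPKM, the stromal proteoglycan Lum from 17.7 to 171 FPKM and Lyz2 of macrophages from 12.2 to 302 FPKM. Dcn, a marker of stromal keratocytes, was higher still, at 16249 to 23906 CPM, where Slc4a11 ran from 2402 to 6067 CPM. CPM is not scaled to length. Krt12 of the corneal epithelium was at 1.58 to 36.8 FPKM and Cdh5 of blood vessels at 0 to 0.276 FPKM. Every early library carried abundant transcripts of the layer together with those of its neighbours.

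Col8a2, the mutated gene, was abundant in both genotypes. It lay at 937, 1023 and 786 CPM in mutant replicates 1, 2 and 3 and at 1686, 613 and 1209 CPM in wild-type replicates 1, 2 and 3, the order kept for every gene from here on. Wild-type replicates 1 and 3 were above all 3 mutants and replicate 2 below them, so the groups overlapped. The log2 fold change, mutant over wild type on the CPM scale, was -0.35 ± 0.31 (SE, edgeR adjusted p = 0.589), and -0.64 ± 0.24 (adjusted p = 0.252) without wild-type replicate 2. The substitution alters the protein sequence, so these levels are no check on genotype. Col8a1, which assembles with Col8a2, lay at 2147, 975 and 1391 CPM in mutants and 920.4, 871 and 1408 CPM in wild type (adjusted p = 0.431), again with overlap. Of 24 tested genes of collagen VIII and Descemet membrane 1 was higher past the threshold. It was Vtn, the adhesive glycoprotein vitronectin, at 4.91, 5.7 and 1.98 against 0.762, 0.98 and 0.713 CPM (5.14-fold, adjusted p = 0.0342), and the median log2 fold change of the 24 was -0.003.

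Genes past the threshold were nearly all higher in the young mutants. The lists with the largest called shares were photoreceptor markers with 9 of 20, macrophage and myeloid genes with 9 of 24, pigment cell markers with 4 of 12 and immediate early genes with 6 of 22. Complement had 4 of 18, metalloproteinases and their inhibitors 3 of 18, chaperones of the endoplasmic reticulum 2 of 23 and interstitial collagens 1 of 13. With edgeR's quasi-likelihood F test and a threshold of 0.05 on the Benjamini-Hochberg adjusted p, 119 of 15501 genes tested (0.768%) were higher and 9 (0.0581%) lower, each by at least 2-fold and none with overlap between the genotypes. Among all genes tested the mutant libraries lay wholly above the wild-type libraries in 9.94% and wholly below in 11.8%, and the median log2 fold change was -0.07. Of the higher genes 117 were protein-coding, and of the lower genes 5. The mutants did not contribute equally. In 77 of the 119 higher genes (64.7%) mutant replicate 3 was the lowest of the mutants, against 31.5% of all genes tested, and in 72 (60.5%) mutant replicate 1 was the highest, against 37.3%.

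Without wild-type replicate 2 the same test called 27 genes higher (0.172% of 15679) and none lower, where 1358 higher and 1137 lower genes had an unadjusted p under 0.05. DESeq2 on these 5 libraries called 412 higher and 120 lower, and limma-voom called none, with 748 and 743 at an unadjusted p under 0.05. Of the 128 genes called with 6 libraries 25 (19.5%) were also called with 5. All 119 higher genes stayed above 0 without this library, and 61 of them had a larger log2 fold change. Leaving out another library moved the count too, to 24 genes without wild-type replicate 1, 20 without wild-type replicate 3, 72 and 75 without mutant replicates 1 and 2, and 161 without mutant replicate 3. With all 6 libraries the fit had 4 residual degrees of freedom, and with 5 it had 3.

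**Figure D2:**
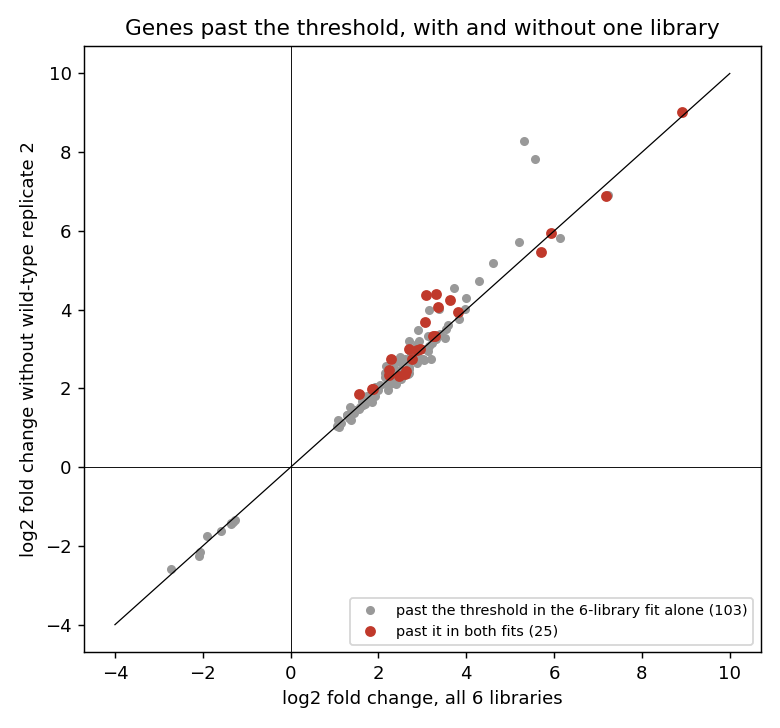
Log2 fold change, mutant over wild type, of the 128 genes past the threshold with all 6 early libraries (x axis) and with wild-type replicate 2 left out (y axis), as points, with the line of equality drawn. The 25 genes past the threshold in both fits are red and the other 103 grey, and every one of the 119 higher genes keeps its sign.

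A core of 8 genes kept its call whichever of the 6 libraries was left out, named here after their values were seen where the naming rule did not choose them. They were Ctla2a, Bpifb1, Ms4a7, Lgals3, Bcl2a1b, Plat, Ctss and Icam1. Icam1, an adhesion molecule that leukocytes bind on activated cells, was at 136, 111 and 112 CPM in mutants and 30.9, 38.3 and 29.9 CPM in wild type, 3.62-fold higher (log2 fold change 1.86 ± 0.22 SE, edgeR adjusted p = 0.00323). Lgals3, a galactoside-binding lectin of macrophages and stressed epithelia, was at 129, 141 and 96.6 CPM in mutants and 25.3, 28.2 and 23.6 CPM in wild type (4.75-fold, adjusted p = 0.00188). Wild-type replicate 2 was the highest control for both genes, far below the lowest mutant. Without it their log2 fold changes were 1.99 and 2.34 (adjusted p = 0.0281 for each). At the other extreme, 15 of the 128 genes lost their call in every one of the 6 leave-one-out fits.

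Genes of macrophages and other myeloid cells were well represented. Of 24 tested, 9 were higher past the threshold and none lower, 20 log2 fold changes lay above 0, and the median was 1.75. Lyz2, lysozyme of macrophages, was at 339.7, 292 and 166 CPM in mutants and 41.1, 24.5 and 11.9 CPM in wild type, 10.3-fold higher (edgeR adjusted p = 0.00469). Mutant replicate 3 was the lowest mutant and still far above the highest control. Ms4a7, a membrane protein of tissue macrophages, was at 15.8, 20.8 and 10.7 against 1.6, 1.65 and 1.58 CPM (9.79-fold, adjusted p = 0.00149), with nearly equal controls. Cd68, a lysosomal protein of phagocytes, was 5.74-fold higher, Gpnmb, a glycoprotein of lipid-laden macrophages and pigment cells, 4.57-fold, and Trem2, a lipid-sensing receptor, 5.58-fold. Among receptors for antibody, Fcgr3 was at 17.3, 15 and 6.62 against 0.508, 3.52 and 0.739 CPM, Fcer1g, the shared signalling chain, at 34.1, 24.2 and 17.4 against 6.6, 1.69 and 1.06 CPM, and Fcgr1 16-fold higher from 0.0363 to 0.134 CPM in wild type, near the level of 3 counts.

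Several defining genes of these cells did not pass. Ptprc, the CD45 phosphatase of all leukocytes, was at 0.512, 0.477 and 0.719 CPM in mutants and 0.145, 1.51 and 3.62 CPM in wild type (log2 fold change -1.64 ± 0.81, adjusted p = 0.351). Its 2 highest libraries were wild-type replicates 3 and 2. Csf1r, the receptor that macrophages need for survival, was at 5.56, 3.42 and 3 against 0.907, 3.83 and 2.93 CPM (adjusted p = 0.516), and Adgre1, the F4/80 antigen, at 1.81, 1.11 and 1.05 against 0.363, 1.6 and 0.475 CPM (adjusted p = 0.589). Itgam, an integrin of myeloid cells, lay below 0 at -1.24 (adjusted p = 0.37). For Csf1r, Laptm5 and Cx3cr1 wild-type replicate 2 was the highest control and reached into the mutant range, with Cx3cr1, a chemokine receptor, at 5.88, 3.55 and 1.08 against 0.0363, 6.46 and 2.24 CPM. Without that library the median of the 24 genes was 2.36 and 4 of them were called, Ms4a7, Ctss, Fcgr3 and Cd14. Cd14, the co-receptor for bacterial lipopolysaccharide, was at 3.53, 3.15 and 1.53 against 0.0363, 0.802 and 0.0792 CPM and passed only there (log2 fold change 5.44 ± 0.73, adjusted p = 0.0443, against 3.26 ± 0.84 and 0.119 with 6 libraries). In bulk RNA, more cells of a type and more RNA per cell cannot be told apart.

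Complement genes were represented by the first component. Of 18 tested, 4 were higher, 14 log2 fold changes lay above 0 and the median was 0.80. The 3 chains of C1q, which binds antibody and apoptotic cells and starts the classical cascade, were among the 4. C1qa was at 35.9, 11.8 and 4.86 CPM in mutants and 0.725, 1.43 and 0.607 CPM in wild type (19.4-fold, log2 fold change 4.28 ± 0.67 SE, adjusted p = 0.0119). Mutant replicate 1 stood far above the other mutants, and without it the log2 fold change was 3.22 (adjusted p = 0.00862). C1qb was at 57.1, 43.4 and 14.7 against 4.39, 6.73 and 4.49 CPM (7.4-fold, adjusted p = 0.00913). C1qc was at 36.4, 48.2 and 13.4 against 1.23, 4.63 and 2.19 CPM (12.3-fold, adjusted p = 0.00803), and its log2 fold change was 4.25 without wild-type replicate 2. In all 3 the lowest mutant, at 4.86, 14.7 and 13.4 CPM, stood above the highest control. C4b, the next component of the cascade, was 4.63-fold higher (adjusted p = 0.0136), and its reads may be shared with a near-identical copy. C1qa, C1qb and C4b lost their calls with any 1 wild-type library left out, and C1qc without mutant replicate 1 or wild-type replicate 1 or 3.

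Among proteases of the lysosome and their inhibitors the gene pair Ctss and Ctla2a was higher. Ctss, cathepsin S, which cuts the invariant chain in antigen-presenting cells, was at 67.8, 96.4 and 39.5 CPM in mutants and 6.49, 5.66 and 2.51 CPM in wild type, 14-fold higher (log2 fold change 3.80 ± 0.42 SE, adjusted p = 0.00199). Ctla2a, related to the inhibitory propeptide of cathepsins, had the highest fold of the genes named by size. It was at 20.4, 23.4 and 8.54 CPM in mutants and 0.544, 0.178 and 0.264 CPM in wild type (52.3-fold, adjusted p = 0.00149). Its controls lay near the level of 3 counts, and reads may be shared with its close paralog. They were the 2 genes called of 18 tested, of which 16 lay above 0 (median 0.50). Presentation on MHC class II had 2 of 10 tested genes higher, with 7 above 0, 3 below and a median of 0.15. The class II chain H2-Eb1 was at 29.9, 14 and 15.2 against 3.41, 2.85 and 5.41 CPM (5.02-fold, adjusted p = 0.0132). Its invariant chain Cd74 was at 147, 67.9 and 53.1 against 27.9, 15.8 and 11.9 CPM (4.82-fold, adjusted p = 0.024). Both lost their calls with any 1 wild-type library left out, and Cd74 also without mutant replicate 1. Of 12 tested genes of MHC class I and the immunoproteasome none passed, with 7 not overlapping on the higher side. H2-K1, a class I heavy chain, was at 546, 497 and 547 against 322, 311 and 337 CPM (adjusted p = 0.142).

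Among 17 tested chemokines and adhesion molecules all log2 fold changes lay above 0 (median 1.62) and 3 were higher past the threshold, Icam1 and 2 chemokines at low counts. Ccl8, a chemokine for monocytes, was at 3.13, 2.41 and 0.989 CPM in mutants and 0, 0 and 0.0264 CPM in wild type (adjusted p = 0.00521). Cxcl14, a chemokine of epithelia, was at 1.56, 0.927 and 0.629 CPM in mutants and 0, 0 and 0.0264 CPM in wild type (adjusted p = 0.0186). Each had 1 count over the 3 wild-type libraries, so no fold is given. Of 25 interferon-stimulated genes none passed the threshold, 17 lay above 0 and the median was 0.25. Xaf1 and Usp18 of that list lay below 0 with no overlap, at 22.9, 28.3 and 21 against 65.2, 50.1 and 40.6 CPM (adjusted p = 0.0699) and 35.3, 32.7 and 27.3 against 72.6, 44.7 and 49.1 CPM (adjusted p = 0.179).

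**Figure D3:**
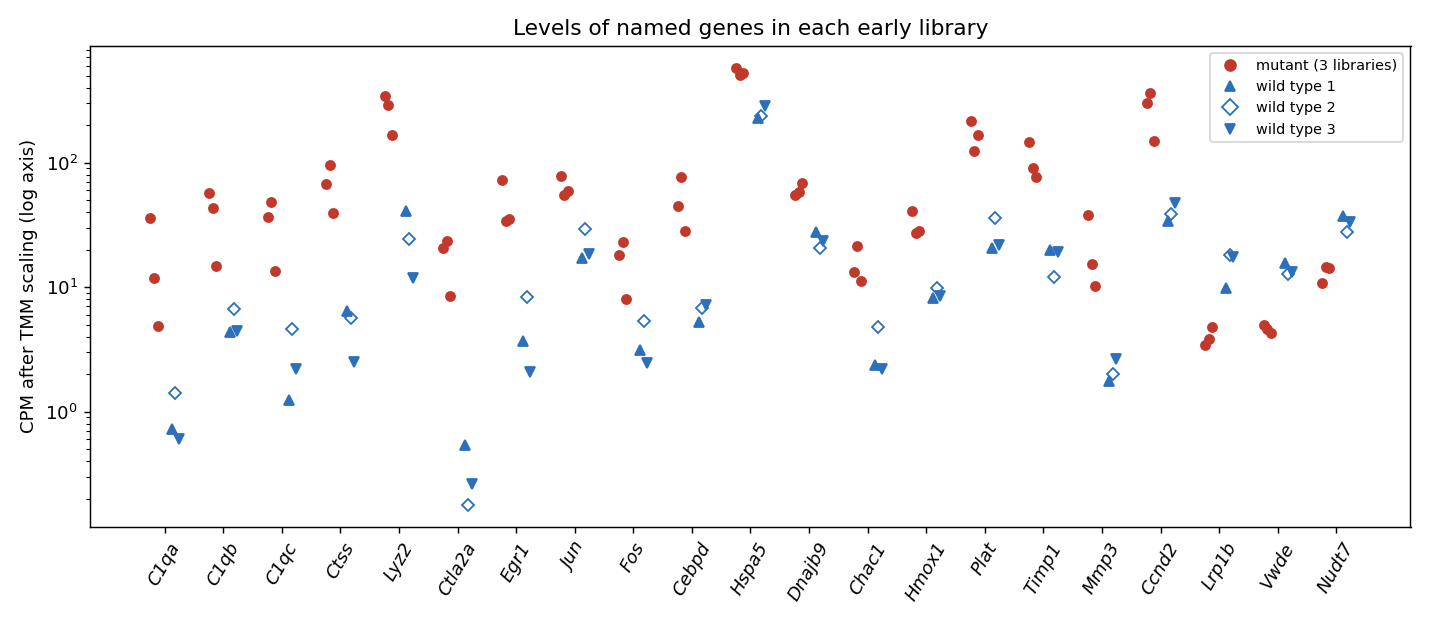
CPM after TMM scaling (log axis) of 21 genes in each of the 6 early libraries, with mutants as red circles and wild-type replicates 1, 2 and 3 as blue upward triangles, open diamonds and downward triangles. In each gene the 3 mutants lie wholly above or, for Lrp1b, Vwde and Nudt7, wholly below the 3 wild-type libraries.

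Immediate early genes, transcription factors and regulators that cells switch on quickly after a stimulus, were a further group. Of 22 tested, 6 were higher past the threshold, 21 lay above 0, 13 did not overlap and the median was 1.13. Egr1, a zinc finger factor, was at 73.2, 34.1 and 35.6 CPM in mutants and 3.66, 8.29 and 2.09 CPM in wild type (10.3-fold, adjusted p = 0.00726). Wild-type replicate 2 was the highest control, and the log2 fold change went from 3.36 ± 0.48 (SE) to 4.07 ± 0.47 (adjusted p = 0.0281) without it. Jun and Fos, which pair to form AP-1, were at 78, 55.2 and 59.6 against 17.3, 29.5 and 18.6 CPM (2.95-fold, adjusted p = 0.0201) and at 18.1, 23 and 8.06 against 3.16, 5.3 and 2.48 CPM (4.52-fold, adjusted p = 0.0291). In both, too, wild-type replicate 2 was the highest control. Atf3, a stress-induced repressor, was 9.31-fold higher (adjusted p = 0.0206), Klf6, a zinc finger factor, 3.55-fold (adjusted p = 0.0269) and Ier3, a regulator of cell survival, 2.12-fold (adjusted p = 0.0459). Jun kept its call in 3 of the 6 leave-one-out fits, Klf6 and Atf3 in 2 each, Fos in 1 and Ier3 in none. Atf3 was at 4.14 on the log2 scale without wild-type replicate 3 (adjusted p = 0.0557). The summed level of the list was 617, 438 and 462 CPM in mutants and 181, 278 and 166 CPM in wild type.

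The interleukin-6 family and its C/EBP factors had 3 of 16 tested genes higher (median 0.54). Cebpd, a C/EBP factor of the acute phase, was at 44.6, 76.2 and 28.3 CPM in mutants and 5.3, 6.86 and 7.21 CPM in wild type (7.69-fold, adjusted p = 0.00323). It also passed without wild-type replicate 2 (log2 fold change 3.01, adjusted p = 0.0493). Cebpb, its relative, was at 7.09, 3.26 and 3.36 against 0.181, 0.223 and 0.739 CPM (11.3-fold, adjusted p = 0.0147), and its log2 fold change was 3.50 with all libraries and 4.50 without wild-type replicate 3. The Cebpb call was lost without mutant replicate 1 or wild-type replicate 1 or 2. Socs3, the feedback inhibitor of this pathway, was 5.73-fold higher (adjusted p = 0.0447), with a log2 fold change of 2.52, and of 3.23 without wild-type replicate 3 (adjusted p = 0.0709). Dusp10, a phosphatase of stress-activated kinases, was the 1 gene called of 16 in ERK feedback, at 39.8, 34 and 35.8 against 18.4, 15 and 17.8 CPM (adjusted p = 0.0462).

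Genes of protein folding in the endoplasmic reticulum lay mostly above 0, by small amounts. Of 23 tested chaperones and folding enzymes 22 lay above 0, 14 did not overlap, the median was 0.61, and 2 passed the threshold. Hspa5, the main chaperone of this compartment and sensor partner of the unfolded protein response, was at 577, 503 and 526 CPM in mutants and 228, 236 and 284 CPM in wild type (2.15-fold, log2 fold change 1.10 ± 0.21 SE, adjusted p = 0.0269). The 3 mutants lay close together and well above the controls. The call was lost with any 1 library left out, and without wild-type replicate 2 the log2 fold change was 1.08 (adjusted p = 0.106). Dnajb9, a co-chaperone of Hspa5 that is a target of XBP1, was at 54.7, 58.1 and 68.6 against 27.9, 20.6 and 23.4 CPM (2.52-fold, adjusted p = 0.0196) and kept its call in 1 of 6 leave-one-out fits. Xbp1 itself, the transcription factor activated by the sensor IRE1, was at 189, 172 and 165 against 147, 113 and 86.1 CPM (adjusted p = 0.259). Of 20 genes of degradation and the sensors none passed and 15 lay above 0 (median 0.26), with the adaptor Sel1l at 181, 184 and 183 against 112, 126 and 136 CPM (adjusted p = 0.228). Collagen-modifying and folding enzymes gave no call among 25 (median 0.39), with P4ha1, a prolyl hydroxylase of collagen, at 211, 217 and 197 against 130.1, 108 and 135 CPM (adjusted p = 0.142). Cytosolic heat shock genes gave none among 20 (median 0.36).

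The ATF4 and CHOP branch was the one stress list with every member on the same side. All 27 tested log2 fold changes lay above 0, 13 did not overlap, the median was 0.65 and 3 passed, Chac1, Fgf21 and Cebpb. Chac1, an enzyme that degrades glutathione, was at 13.2, 21.3 and 11.2 CPM in mutants and 2.39, 4.77 and 2.22 CPM in wild type (4.91-fold, adjusted p = 0.0147). Wild-type replicate 2 was the highest control, and without it the log2 fold change was 2.74 (adjusted p = 0.0446), which also passed. Fgf21, a secreted hormone of metabolic stress, was at 8.01, 6.36 and 6.56 against 1.16, 1.87 and 2.3 CPM (3.91-fold, adjusted p = 0.0201). Ddit3, the CHOP factor itself, was at 119, 83.5 and 95 against 60.3, 52.1 and 84.9 CPM (adjusted p = 0.28). Its lowest mutant, replicate 2, fell below wild-type replicate 3, so the groups overlapped. Without wild-type replicate 2, 26 of the 27 lay above 0 and the median was 0.73. Chac1 was then the 1 gene called, and Fgf21 and Cebpb lost their calls (edgeR adjusted p = 0.0988 and 0.103).

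Promoters of these stress genes are shown because each holds a motif that bears the name of its response. Windows are the 250 bases before the annotated start in RefSeq (GRCm38.p6, another build than the one used for the counts), and motifs were searched on both strands. Motifs and genes were chosen after the matches were seen. The ER stress element was spelled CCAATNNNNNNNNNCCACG, and 37 of 32851 windows (0.113%) held it. Of the 91 called genes with a window Hspa5 was the only one, at bases 65 to 47 before its start. The C/EBP-ATF composite element was spelled TGATGCAA, with the reverse complement TTGCATCA, and stood in 260 windows (0.791%) and in 5 of the 91 called genes, Atf3, Bcl2a1b, Chac1, Fgf21 and Gngt1. A match is a run of letters and no measure of binding. The match is in capitals below, for Hspa5 (chr2:34771840-34772089, plus strand), Chac1 (chr2:119350992-119351241, plus), Atf3 (chr1:191183334-191183583, minus) and Fgf21 (chr7:45615491-45615740, minus).
Hspa5: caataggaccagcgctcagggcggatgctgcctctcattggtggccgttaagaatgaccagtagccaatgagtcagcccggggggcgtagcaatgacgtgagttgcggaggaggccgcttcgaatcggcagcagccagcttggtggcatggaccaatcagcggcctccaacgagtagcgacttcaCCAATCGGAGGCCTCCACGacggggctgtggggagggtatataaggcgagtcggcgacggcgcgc
Chac1: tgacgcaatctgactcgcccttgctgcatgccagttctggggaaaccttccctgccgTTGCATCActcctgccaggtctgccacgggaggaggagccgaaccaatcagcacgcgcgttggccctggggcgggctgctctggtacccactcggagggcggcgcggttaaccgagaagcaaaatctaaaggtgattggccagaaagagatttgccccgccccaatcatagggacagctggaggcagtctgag
Atf3: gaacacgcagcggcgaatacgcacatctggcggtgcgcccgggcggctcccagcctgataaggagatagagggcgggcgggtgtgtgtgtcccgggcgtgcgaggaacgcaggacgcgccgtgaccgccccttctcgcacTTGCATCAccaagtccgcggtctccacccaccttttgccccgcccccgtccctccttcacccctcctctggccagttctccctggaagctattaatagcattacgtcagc
Fgf21: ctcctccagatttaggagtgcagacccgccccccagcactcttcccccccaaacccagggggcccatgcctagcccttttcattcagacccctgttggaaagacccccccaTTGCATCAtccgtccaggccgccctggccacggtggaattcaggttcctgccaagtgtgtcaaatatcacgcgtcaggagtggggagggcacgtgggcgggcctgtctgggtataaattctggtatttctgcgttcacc

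Antioxidant genes had 3 of 32 tested members higher, with 27 above 0 and a median of 0.24. Hmox1, which degrades heme, was at 41.1, 27.2 and 28.4 CPM in mutants and 8.16, 9.94 and 8.42 CPM in wild type (3.65-fold, adjusted p = 0.0068). It also passed without wild-type replicate 2 (log2 fold change 1.97, adjusted p = 0.0493). Gpx3, the secreted glutathione peroxidase, was at 188, 126 and 55.5 against 17.2, 17.4 and 7.5 CPM (8.79-fold, adjusted p = 0.0068). Its spread among mutants was wide. The Gpx3 call was lost with any 1 wild-type library left out (edgeR adjusted p = 0.0702 without wild-type replicate 2). Sod3, the extracellular superoxide dismutase, was abundant, at 4119.8, 3132 and 3595 against 1917, 1545 and 986 CPM (2.44-fold, adjusted p = 0.0448), and its call was lost with any 1 library left out. Nqo1, a standard target of the NRF2 factor, was at 33.6, 40.8 and 37.9 against 41, 31.1 and 32.9 CPM (adjusted p = 0.858), with full overlap. Glycolysis had 20 of 22 genes above 0 (median 0.48) and 1 call, Pfkfb3, which makes the activator of phosphofructokinase, at 68.8, 41.5 and 47 against 20.5, 16.6 and 20.5 CPM (2.73-fold, adjusted p = 0.0223). The Pfkfb3 call was lost without wild-type replicate 2 (edgeR adjusted p = 0.116). None of the 13 mitochondrially encoded messenger RNAs passed (median -0.002).

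Extracellular proteases and their inhibitors had 3 of 18 tested genes higher, Plat, Timp1 and Mmp3. Plat, tissue plasminogen activator, which turns plasminogen into plasmin, was at 216, 123 and 167 CPM in mutants and 20.8, 35.6 and 21.9 CPM in wild type (6.46-fold, log2 fold change 2.69 ± 0.30 SE, adjusted p = 0.00199). Its lowest mutant stood far above wild-type replicate 2, the highest control, and without that library the log2 fold change was 3.00 (adjusted p = 0.0281). Timp1, an inhibitor of metalloproteinases, was at 147, 90.5 and 76.5 against 19.98, 12.1 and 19 CPM (6.15-fold, adjusted p = 0.00311) and also passed without wild-type replicate 2 (adjusted p = 0.0443). Mmp3, stromelysin, was at 38.2, 15.4 and 10.1 against 1.78, 2.01 and 2.64 CPM (9.86-fold, adjusted p = 0.0068), led by mutant replicate 1, without which the log2 fold change went from 3.30 to 2.60 (adjusted p = 0.00518). The Mmp3 call was lost with any 1 wild-type library left out (adjusted p = 0.0786 without wild-type replicate 2). The Mmp3 promoter is shown because it holds the AP-1 motif TGACTCA and because Jun and Fos were also called higher. Here it stands as its reverse complement TGAGTCA, in capitals, at bases 46 to 40 before the start (chr9:7445572-7445821, plus strand). Regulation of Mmp3 by AP-1 was not tested. The motif stood in 1466 of 32851 windows (4.46%) and in 8 of the 91 called genes, so its presence does not set Mmp3 apart.
Mmp3: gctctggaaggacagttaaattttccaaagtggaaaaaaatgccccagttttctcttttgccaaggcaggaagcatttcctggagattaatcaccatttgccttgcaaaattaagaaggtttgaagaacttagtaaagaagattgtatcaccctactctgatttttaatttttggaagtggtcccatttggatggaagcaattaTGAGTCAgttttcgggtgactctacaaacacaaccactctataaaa

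Matricellular proteins, secreted regulators of how cells meet the matrix, had 3 of 24 tested genes higher and a median of 0.83. Smoc2, a calcium-binding protein of basement membranes, was at 16.9, 19.8 and 14.5 CPM in mutants and 2.5, 2.72 and 4.83 CPM in wild type (5.05-fold, adjusted p = 0.00625). Mgp, an inhibitor of calcification, was 3.96-fold higher (adjusted p = 0.0251), with mutant replicate 1 at 289 CPM against 102 and 112 CPM in the others and a log2 fold change of 1.36 without it. Sparcl1, a relative of osteonectin, was 2.56-fold higher (adjusted p = 0.032) and kept its call in no leave-one-out fit. No gene of this list was called without wild-type replicate 2. Among 13 interstitial collagens Col6a2, a chain of the beaded filament collagen VI, was the 1 gene called, at 27.4, 26.5 and 23 against 10.7, 6.91 and 12 CPM (2.59-fold, adjusted p = 0.0364). Fn1, fibronectin, was at 506, 595 and 476 against 335, 185 and 536 CPM (adjusted p = 0.395), where wild-type replicate 3 lay within the mutant range. Neither TGF-beta signalling (20 tested, median 0.43) nor the contractile and mesenchymal transition list (19 tested, median 0.05) had a call. Tgfb3, a ligand of the former, was at 27.6, 18 and 26.4 against 9.25, 13.2 and 12.2 CPM (adjusted p = 0.111), and Snai2, a transcription factor of the latter, at 4.29, 4.05 and 4.95 against 2.21, 1.65 and 1.64 CPM (adjusted p = 0.119).

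Of 21 tested genes of G1 control the D-type cyclins Ccnd2 and Ccnd1, partners of the kinases that open the cell cycle, were higher. Ccnd2 was at 304, 361 and 149 CPM in mutants and 33.9, 39 and 47.4 CPM in wild type (6.76-fold, adjusted p = 0.00307), and passed without wild-type replicate 2 as well (adjusted p = 0.0471). Ccnd1 was at 8.9, 20.6 and 4.35 against 0.363, 1.02 and 1.77 CPM (10.5-fold, adjusted p = 0.0249). Its log2 fold change of 3.39 was 2.69 without mutant replicate 2 (adjusted p = 0.0593) and 4.08 without wild-type replicate 3 (adjusted p = 0.123). Without wild-type replicate 2 it was 3.38 and the Ccnd1 call was lost (edgeR adjusted p = 0.146). Cdkn1a, the p21 inhibitor of these kinases, was at 48.8, 129 and 36 against 23.9, 36.9 and 10.2 CPM (adjusted p = 0.183), and mutant replicate 3 lay below wild-type replicate 2. Of 19 genes of replication and mitosis none passed (median 0.29). Among 24 p53 targets 21 lay above 0 (median 0.42) and Tnfrsf12a, a receptor for the cytokine TWEAK, was the 1 gene called, at 32.7, 16.3 and 11.7 against 2.18, 3.43 and 3.41 CPM (6.73-fold, adjusted p = 0.00726). Ptgs2, the inducible enzyme of prostaglandin synthesis, was at 28.1, 18.8 and 19.99 against 5.55, 9.58 and 7 CPM (3.03-fold, adjusted p = 0.0251). Igfbp6, a binding protein of insulin-like growth factor, was 4.66-fold higher (adjusted p = 0.0364). Without wild-type replicate 2 the calls of Tnfrsf12a (edgeR adjusted p = 0.0707), Ptgs2 (edgeR adjusted p = 0.0702) and Igfbp6 were lost.

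**Figure D4:**
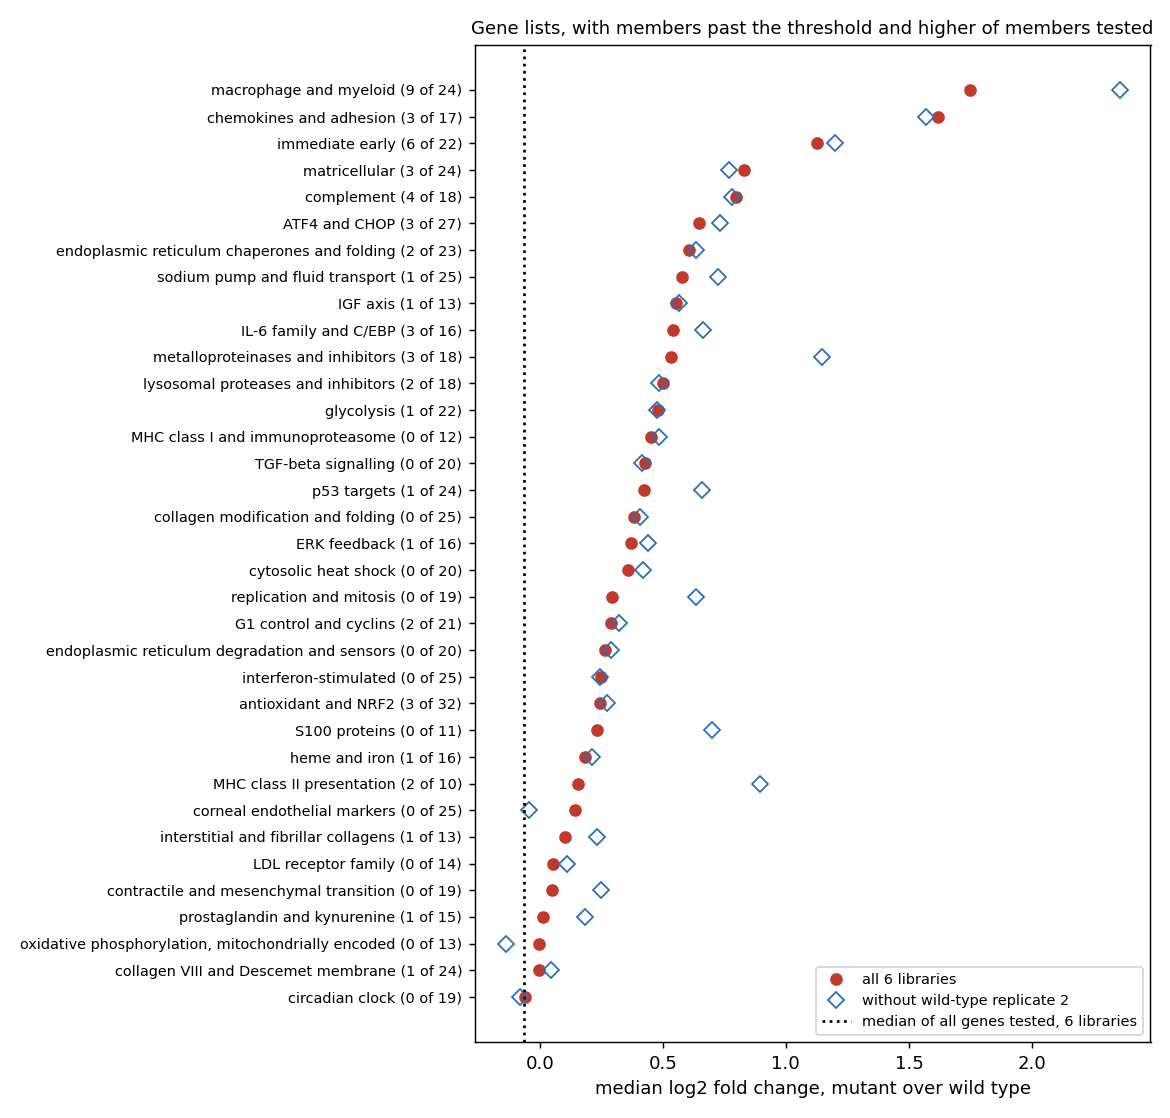
Median log2 fold change, mutant over wild type, of gene lists other than the markers of other tissues, with all 6 early libraries (red circles) and without wild-type replicate 2 (open blue diamonds), with called and tested members in brackets and the median of all genes tested as a dotted line. Of the lists drawn, the macrophage and myeloid list lies farthest to the right, at 1.75 with 9 of 24 members called, and moves to 2.36 without that library.

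Genes of the layer's own work gave a single call. Of 25 tested corneal endothelial markers none passed, 15 lay above 0 and the median was 0.14, and -0.04 without wild-type replicate 2. Slc4a11 was at 6067, 3849 and 5379 CPM in mutants and 3831, 4335 and 2402 CPM in wild type (log2 fold change 0.53 ± 0.27 SE, adjusted p = 0.354), and mutant replicate 2 fell inside the wild-type range. Aqp1 was at 3974, 2182 and 3249 against 3111, 2531 and 1908 CPM (adjusted p = 0.571), also with overlap. Atp1b1 was at 983, 1169 and 1296 against 823, 1023 and 853 CPM (adjusted p = 0.428). Across the sodium pump and fluid transport list 22 of 25 lay above 0 (median 0.58) and Fxyd5, a regulatory subunit that also loosens cell adhesion, was the 1 gene called, at 53.9, 29.7 and 27.8 against 5.3, 2.99 and 1.35 CPM (11.6-fold, adjusted p = 0.00521). Wild-type replicate 1 was its highest control, and the log2 fold change went from 3.54 to 4.18 without it. Without wild-type replicate 2 the log2 fold change of Fxyd5 was 3.51 and its call was lost (adjusted p = 0.0702), so no gene of either list was called there. The junction genes Tjp1 and Cdh2 and the transcription factors Zeb1 and Tcf4 did not pass (adjusted p = 0.922, 0.752, 0.469 and 0.916).

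Genes lower in mutants were few and varied. Lrp1b, a large endocytic receptor of the LDL receptor family, was at 3.45, 3.82 and 4.77 CPM in mutants and 9.83, 18 and 17.3 CPM in wild type (3.76-fold lower, adjusted p = 0.0143). Nudt7, a peroxisomal hydrolase of coenzyme A, was at 10.8, 14.5 and 14.1 against 37, 27.6 and 33.1 CPM (2.48-fold lower, adjusted p = 0.0269), and Ccdc113, a protein of cilia, at 37.3, 64.1 and 49 against 145, 105 and 111 CPM (2.4-fold lower, adjusted p = 0.0403). The calls of Nudt7 and Ccdc113 were lost with any 1 library left out. Vwde was at 4.99, 4.58 and 4.32 against 15.7, 12.8 and 13.3 CPM (3.01-fold lower, adjusted p = 0.0143), with narrow spread in both groups, and kept its call in 1 of 6 leave-one-out fits. Neb, the giant sarcomere protein nebulin, was at 0.971, 0.556 and 0.749 against 1.96, 5.84 and 7.21 CPM (log2 fold change -2.72 ± 0.50 SE, adjusted p = 0.0251), where wild-type replicate 1 stood near the mutants. Tnfsf13os, antisense to another gene, was 4.21-fold lower (adjusted p = 0.036), and since no source used here states whether counting respected strand, its level is uncertain. The other 3 were the unnamed models Gm35162, Gm39902 and Gm51889, named after their values were seen, at log2 fold changes of -2.05, -1.36 and -1.35. Next below the threshold came Kynu, an enzyme of tryptophan breakdown, at 9.55, 8.96 and 17.8 against 45.3, 40.7 and 23.1 CPM (adjusted p = 0.0558). The genes Sfi1, B3gat1 and Hjurp followed at adjusted p = 0.0574, 0.0583 and 0.0665. Without wild-type replicate 2 none of these passed, and all 9 called genes stayed below 0.

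Markers of neighbouring eye tissues differed between the same libraries. Photoreceptor genes summed to 403, 425 and 213 CPM in mutants and 95.0, 83.5 and 59.8 CPM in wild type. All 20 tested lay above 0 (median 2.22), 18 did not overlap and 9 were higher past the threshold. Gnat1, the rod transducin subunit, was at 49.4, 68.4 and 27.8 CPM in mutants and 8.67, 4.81 and 2.96 CPM in wild type (8.88-fold, adjusted p = 0.00616). Pde6b and Pde6g, subunits of the rod phosphodiesterase, were 12-fold and 7.36-fold higher, and Sag, rod arrestin, 6.29-fold. Gngt1, Prph2, Crx and Cnga1 were also among the 9, and Pde6g was the 1 gene also called without wild-type replicate 2 (adjusted p = 0.0471). Pigment cell genes summed to 252, 147 and 102 CPM in mutants and 46.6, 47.3 and 61.6 CPM in wild type, with 4 of 12 higher, Mlana at 5.29-fold, Tyrp1 at 5.5-fold, Dct at 3.79-fold and Pmel at 3.45-fold. Of the 12 tested, 9 lay above 0 and 3 below (median 1.86). Wholly above the wild-type libraries lay 6, and wholly below lay 1, Rab27a. None of the list was called without wild-type replicate 2. Myeloid genes, for comparison, summed to 653, 581 and 312 CPM in mutants and 80.4, 92.3 and 54.3 CPM in wild type. In both myeloid and photoreceptor sums mutant replicate 3 was the lowest mutant and wild-type replicate 3 the lowest control.

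Stromal and drainage tissue gave a few calls. Of 16 keratocyte genes tested 3 were higher, with 12 above 0, 4 below and a median of 0.47. None was called without wild-type replicate 2. The list summed to 28660, 23722 and 27117.5 CPM in mutants and 30766, 26964 and 21225 CPM in wild type, with overlap. Wholly above the wild-type libraries lay 6 of the 16, and wholly below lay 1, Omd. Kera, keratocan of the stroma, was at 45, 98.4 and 63.4 CPM in mutants and 17.4, 6.95 and 14.9 CPM in wild type (5.25-fold, adjusted p = 0.0119). Lum, lumican, was 4.62-fold higher (adjusted p = 0.026; 2.80 on the log2 scale without wild-type replicate 1) and Cd34, a sialomucin of stromal and vascular cells, 3.62-fold (adjusted p = 0.0147). Chil1, a chitinase-like protein of the trabecular meshwork and of macrophages, was at 206, 70.9 and 179 against 34.6, 15.4 and 20.3 CPM (6.48-fold, adjusted p = 0.00913). With Mgp it made up the 2 called of 9 tested trabecular and ciliary genes, with 6 above 0, 3 below and a median of 1.56. Sums of that list overlapped, at 3841 to 5703 CPM in mutants and 2582 to 4441 CPM in wild type. None of it was called without wild-type replicate 2. Lens genes ran the other way, with all 13 tested below 0 (median -1.38) and sums of 155, 214 and 112 CPM in mutants and 149, 723 and 210 CPM in wild type. Wild-type replicate 2 was the outlying library, and without it the median was -0.44 and 3 genes lay above 0. No corneal epithelial (14 tested), vascular (11), red blood cell (5), nerve (10) or muscle gene (7) passed. Of the lymphoid list 1 gene was tested and of the neutrophil and mast cell list 2, none of them called. What part these tissues had in the differences of the myeloid, complement, immediate early, stress and matrix genes was not tested.

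**Figure D5:**
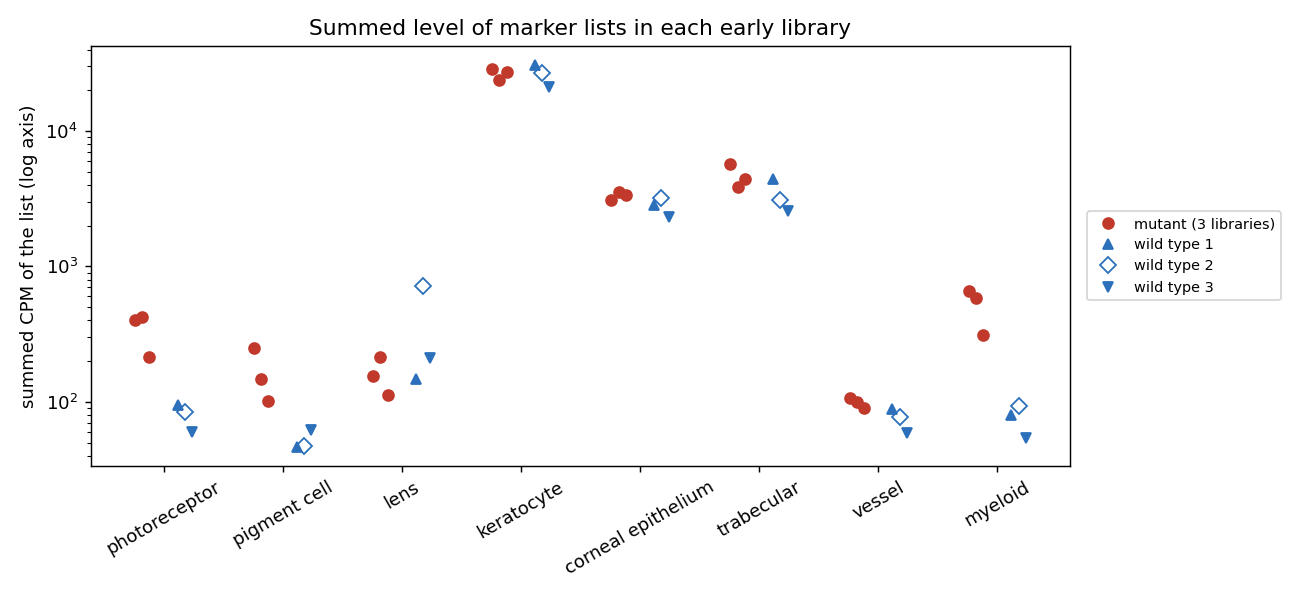
Summed CPM (log axis) of 8 marker lists in each of the 6 early libraries, with mutants as red circles and wild-type replicates 1, 2 and 3 as blue upward triangles, open diamonds and downward triangles. Photoreceptor, pigment cell and myeloid sums lie higher in all 3 mutants, and the lens sum is highest in wild type 2, at 723 CPM. Single abundant genes make up most of some sums. In mutant 1 Aldh3a1 gave 3038 of 3089 CPM for corneal epithelium, Dcn 20375 of 28660 CPM for keratocyte and Aqp1 3974 of 5703 CPM for trabecular.

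The late libraries, from other animals in another batch with their own controls, gave the same genes a second measurement. Fitted alone, they had 285 higher genes (1.75% of 16257) and 204 lower (1.25%). Of the 119 genes higher early, 114 lay above 0 late and 69 were called higher, which is 58% of the early list and 24.2% of the late one. Their median log2 fold change was 2.53 early and 2.07 late. Of the 9 lower genes 8 lay below 0 late and 7 were called lower. The myeloid list had 15 members higher late (median 2.75) and the ATF4 and CHOP list 8 (median 0.97). Hspa5 was at 520.3 ± 74.1 CPM in late mutants against 228 ± 34 (SD, n = 3; edgeR adjusted p = 0.0427). Egr1 was at a late log2 fold change of 3.09, Ctss of 3.09, Plat of 3.09 and Fxyd5 of 4.13. No member of the photoreceptor or pigment cell list passed late (medians 1.19 and 0.15). Pdc, phosducin of photoreceptors, is outside the list and was singled out after its values were seen. It passed at both stages, with log2 fold changes of 2.53 early (adjusted p = 0.0159) and 1.84 late (adjusted p = 0.0313). Gnat1 had a late log2 fold change of 1.65 (adjusted p = 0.201) and Dct of 0.76 (adjusted p = 0.613). In a fit of all 12 libraries 1 of 17965 genes passed a test of the difference between the 2 genotype effects, Isoc1, so for the others a call at one stage alone does not show a difference between stages.

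In the authors' deposited table of the early comparison, which holds protein-coding genes, 269 of 17745 genes (1.52%) were higher and 62 (0.349%) lower at a q-value under 0.05. Of the 128 genes called here the authors' deposited table lists 122, all with a q-value under 0.05 and the same direction. Their comparison is of the same early genotypes of this series, so this is no independent check.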

How the data were processed

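Polyadenylated RNA was extracted with TRIzol and made into strand-keeping libraries, per the labels' protocols. Per the submitters' processing notes, the tools were DESeq2, fastp, HTSeq and HISAT2 and the build was GRCm39, without versions. Neither strand handling in HTSeq nor any batch adjustment is given in the sources used here. Per the file headers, the authors deposited whole-number counts per gene and FPKM values, the latter used only for levels per length. The authors also deposited a table of their early comparison, which gives a fold change (a ratio), its log2, a p-value and a q-value for each gene.

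Counts of the 6 early libraries were fitted alone with edgeR 4.0.16 (R 4.3.3): filterByExpr, TMM, robust quasi-likelihood F test, Benjamini-Hochberg adjustment over all 15501 genes kept, and a threshold of 0.05. The fit was repeated without early wild-type replicate 2. Levels are CPM after TMM scaling. Standard errors come from the F statistic. The same test was fitted to the 6 late libraries. The scripts were checked on simulated counts. Between replicates of a group, squared differences averaged over genes were 50.9 to 124.9 times those of sampling noise alone, a ratio of variances.

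The members and gene lists were chosen with earlier results of these data known. Lists are described by counts and medians, without a set test. Genes were named by a fixed rule: among called genes with a proper symbol, a mean of 5 CPM or more in one group and no overlap, the 15 with the highest and the 15 with the lowest fold, the same without early wild-type replicate 2 (up to 10), every list member past the threshold or else the 3 of smallest p, a fixed panel, and, where fewer than 10 genes passed in a direction, those of smallest p. Some genes the rule names are not reported here. Others are said to be named after their values were seen. The fit of 11 libraries and the test of the difference between stages were chosen after seeing the data. Alternatives were DESeq2 1.42.0 (size factors, Wald test), limma-voom (limma 3.58.1) with sample weights, no filter, a filter of 5 CPM in 3 libraries, a replicate block, all 12 libraries, protein-coding genes alone, and leaving out each library.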

Additional observations from a re-analysis of the deposited data

Results flagged for a closer look

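Isoc1, which encodes an isochorismatase domain protein, was the 1 gene of 17965 whose genotype effect differed between the stages by a test of the difference itself, in an edgeR fit of all 12 libraries. It was at 139, 277 and 275 CPM in early mutants and 86.6, 78.7 and 84.8 CPM in early wild type, which is 1.47 ± 0.27 on the log2 scale (SE, adjusted p = 0.0269). In the late libraries it was at 72.7 ± 6.84 CPM in mutants and 259 ± 122 CPM in wild type (SD, n = 3), or -1.83 on the log2 scale (edgeR adjusted p = 0.0122). The late minus early difference was -3.33 ± 0.49 (SE, adjusted p = 0.0304 over all genes). Early mutant replicate 1 was the lowest of the early mutants and still above all 3 controls. The early call of Isoc1 was kept in 1 of 6 leave-one-out fits and in 7 of 15 alternatives. Without early wild-type replicate 2 its early log2 fold change was 1.45 (edgeR adjusted p = 0.136). Stage and batch cannot be told apart in the late minus early difference. Of the 128 genes called early, 12 had an unadjusted p under 0.05 for the same difference.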

How the results depend on the processing

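The 128 genes called with 6 libraries became 128 with DESeq2 size factors, 105 among protein-coding genes alone and 106 in a fit of all 12 libraries. They became 954 with no low-count filter, 465 by DESeq2's Wald test, 80 with a filter of 5 CPM in 3 libraries, 46 by limma-voom and 79 in the added fit of 11 libraries without early wild-type replicate 2, which shared 65 with the 128. Leaving out 1 library gave from 20 to 161. With no filter 531 were higher and 423 lower, and by DESeq2 376 and 89, against 119 and 9, with medians of all genes at -0.58 and -0.62. The 27 genes called without early wild-type replicate 2 became 1001 with no filter, 532 by DESeq2, 0 by limma-voom, 24 with the stricter filter and 79 with the late libraries added. The cause of these changes was not tested. Of the 128 calls 6 held in all 15 alternatives. With the replicate number as a block 189 genes passed. Between same-numbered libraries, deviations from the genotype mean in log2 CPM correlated at -0.11, -0.03 and -0.06. Such deviations are centred within each group of 3 libraries, so these values do not settle whether the numbers mark a shared factor. Directions reversed in 5 named genes far from the threshold. The log2 fold change of Tcf4 was 0.037 with no filter, 0.0022 by DESeq2, 0.045 by limma-voom and -0.16 to 0.14 with 1 library left out, and that of Tjp1 was 0.0079 with no filter and -0.52 to 0.26 with 1 left out. Lck was at 0.15 and S100a9 at 0.35 in the 11-library fit, and at -0.24 to 0.11 and -1.05 to 0.35 with 1 left out. Col8a2 was at -0.64 to 0.051 with 1 left out, above 0 only without early wild-type replicate 1. At 3 counts, equal to 0.0761 to 0.152 CPM, low genes such as Ccl8 and Cxcl14 have no measurable wild-type level.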

Other observations

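Some of the higher genes belong to no list, and those below that the naming rule did not choose were named after their values were seen. Bpifb1, a secreted lipid-binding defence protein, was at 34, 18.2 and 30.8 CPM in mutants and 2.32, 3.16 and 3.22 CPM in wild type (9.51-fold, edgeR adjusted p = 0.00149), and passed in every leave-one-out fit. Ltf, lactoferrin, was at 2.75, 2.07 and 2.91 against 0.0725, 0.579 and 0.158 CPM (adjusted p = 0.0396). Of its 21 wild-type counts 13 came from replicate 2, and without that library the log2 fold change went from 3.31 to 4.41 (adjusted p = 0.0443). Klk1b22, a glandular kallikrein with close paralogs, did not pass with 6 libraries. It held 40, 143 and 121 counts in mutants and 0, 14 and 0 in wild type, and passed only without replicate 2 (adjusted p = 0.0493, against 0.147 with it). Lbp, which carries lipopolysaccharide to Cd14, was 3.59-fold higher (adjusted p = 0.039).

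Cox6a2, a heart and muscle form of a cytochrome oxidase subunit, was at 2.67, 1.59 and 1.29 CPM in mutants with no count in wild type, at least 54.2-fold higher against a floor of 3 counts over the group (adjusted p = 0.0068). Cox8b, another such form, was at 28.6, 7.87 and 4.32 against 0.326, 0.802 and 1.64 CPM (adjusted p = 0.0266), led by mutant replicate 1, without which its log2 fold change went from 3.84 to 2.73, and to 4.63 without wild-type replicate 3 (adjusted p = 0.125). Cox4i2, a form of lung and low oxygen, was 2.42-fold higher (adjusted p = 0.0451). None of the 3 was called late, at log2 fold changes of 1.84, 1.83 and -0.66.

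Among the abundant genes, Apod, an apolipoprotein of the lipocalin family, was at 3065, 2559.9 and 3179 CPM in mutants and 1289.6, 1061 and 1160.2 CPM in wild type (2.51-fold, adjusted p = 0.0127), and the serine protease Prss23 was 2.09-fold higher (adjusted p = 0.0377). H19, an imprinted non-coding RNA, was at 4.67, 3.21 and 3.42 against 0.29, 0.802 and 0.29 CPM (adjusted p = 0.0143), and passed without wild-type replicate 2 (adjusted p = 0.0352). Elobl had the second highest fold of the genes named by size, but its early estimate moved with single libraries. It was at 16.2, 42.5 and 4.08 against 0.0363, 1.29 and 0.132 CPM. Its log2 fold change of 5.56 ± 1.00 (SE, adjusted p = 0.024) was 4.54 without mutant replicate 2 and 7.82 without wild-type replicate 2. The early call was lost with any 1 library left out. In the late libraries Elobl was at 22.2 ± 3.24 CPM in mutants and 0.576 ± 0.187 CPM in wild type (SD, n = 3). Its late log2 fold change was 5.27 (edgeR adjusted p = 3.77e-06). Ppp1r1a, an inhibitor of protein phosphatase, was at 12.6, 7.66 and 1.95 against 0.218, 0.535 and 0.185 CPM (adjusted p = 0.00806; 4.005 on the log2 scale without mutant replicate 1, against 4.62). Its late log2 fold change was -0.63 (adjusted p = 0.826).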
